A study of Mus musculus with 12 samples.

Results

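NRF2, encoded by Nfe2l2, and 9 of its classic target genes were followed across 12 mouse kidneys whose RNA had been sequenced. The 10 genes were taken by symbol as known members of the pathway, with earlier results of these data in view, and all 10 were found among the 23420 genes counted. All 10 also passed the filter on low counts, which left 11664 genes to be tested. Slc7a11 had no count in 2 of the control kidneys, and Srxn1 had 2 counts in replicate 4 of the controls. Both passed that filter only with the ischemic kidneys, in which they were high.

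The kidneys came from adult male C57BL/6J mice. The 4 control kidneys had been removed at nephrectomy. The other 8 kidneys were taken 24 h after an ischemia of 20 min, and the labels give the same times for the controls. In the ischemic mice the opposite kidney had been removed and a clamp had been placed under ketamine and xylazine with buprenorphine, and brief isoflurane was used to work the clamp. One set of mice was awake during ischemia and the other was anaesthetised, but the title and the group field of each ischemic kidney contradict each other. The kidneys were therefore kept as set A (anaesthetised by title, conscious by group field) and set B (conscious by title, anaesthetised by group field), with 4 kidneys in each, and no direction was assigned to anaesthesia. Against the controls, ischemia, surgery and sedation cannot be told apart. Both comparisons with the control use the same 4 control kidneys.

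Each kidney was counted to between 15367342 and 44793350 reads on genes. Levels are given in CPM, the count scaled to the size of the library. The detection floor was set at 3 counts, or 0.067 to 0.195 CPM across the kidneys, and it covers counting error only. The 6 proximal tubule markers summed to 6550 to 7303 CPM per control kidney, while set A gave 688 to 1266 CPM and set B gave 400.2 to 1309.6 CPM, and all 6 fell in both sets. The summed level of 4 markers of injured tubule was 0.65 to 3.74 CPM, 53.8 to 99.6 CPM and 39.3 to 97.3 CPM in the same order. Macrophage markers summed to 44.4 to 68.1 CPM per control kidney, while set A gave 14.2 to 37.0 CPM and set B 14.9 to 41.0 CPM. In this list Csf1r fell in both sets, whereas Cd14, with no count in any control, was counted 32 to 348 times per kidney of set A, 0 to 160 times per kidney of set B, and was called higher in both, having passed the low-count filter through the ischemic kidneys. Of the 5 markers of the loop and distal nephron 2 fell in each set, and their sum was 2926 to 3532 CPM per control kidney and 1025 to 2006 CPM over the ischemic kidneys. Of the 3 podocyte markers 1, Podxl, rose in each set, and their sum was 72.9 to 93.0 CPM per control kidney and 99.8 to 164 CPM over the ischemic kidneys. The summed endothelial markers overlapped between the groups and none of the 3 tested was called. On the log2 scale Kdr differed from the controls by -0.58 in set A and by -0.46 in set B. Cdh5 went the other way, by 0.42 and 0.125 in the same order. Pecam1, without a count in several kidneys, gave -0.88 and -1.07. The neutrophil markers found were at or near 0 in every kidney. The part of these shifts in the values that follow was not tested, and in whole kidney RNA fewer cells of a type and less RNA per cell cannot be told apart.

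NRF2 is a transcription factor that is normally bound by KEAP1, an adaptor of a CUL3 ubiquitin ligase, and is degraded soon after it is made. Oxidants and electrophiles modify KEAP1, NRF2 then accumulates in the nucleus, pairs with a small MAF protein and binds antioxidant response elements (AREs) near its targets. These targets import cystine, make and recycle glutathione, run the thioredoxin system, supply NADPH and detoxify quinones and heme. Because control of NRF2 lies largely at the protein, its mRNA need not follow its activity.

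In set A, 5 of the 10 genes rose and none fell, by edgeR's quasi-likelihood test with a Benjamini-Hochberg adjusted p below 0.05. They were Slc7a11, Srxn1, Txnrd1, G6pdx and Nqo1. Of all genes tested, 22.3% passed in this comparison, 10.5% higher and 11.7% lower. In set B, 5 of the 10 rose and 1 fell, against 22.8% of all genes, 10.9% higher and 11.9% lower. Slc7a11, Srxn1, Txnrd1 and G6pdx rose in both sets, Nfe2l2 passed in set B, and Gclm was the gene that fell. Gclc, Gsr and Hmox1 passed in neither set. The median log2 fold change of the 10 genes in set A was 1.51, with -0.016 over all genes, and in set B it was 1.06, with -0.018 over all genes. Between the sets, none of the 10 passed, and 0.00857% of all genes, which is the single gene Slc5a12 (log2 fold change 1.85, higher in set B), did. The number of all genes called there was 0 to 27 under other fits, scalings and filters and 0 to 7 without 1 kidney.

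**Figure D1:**
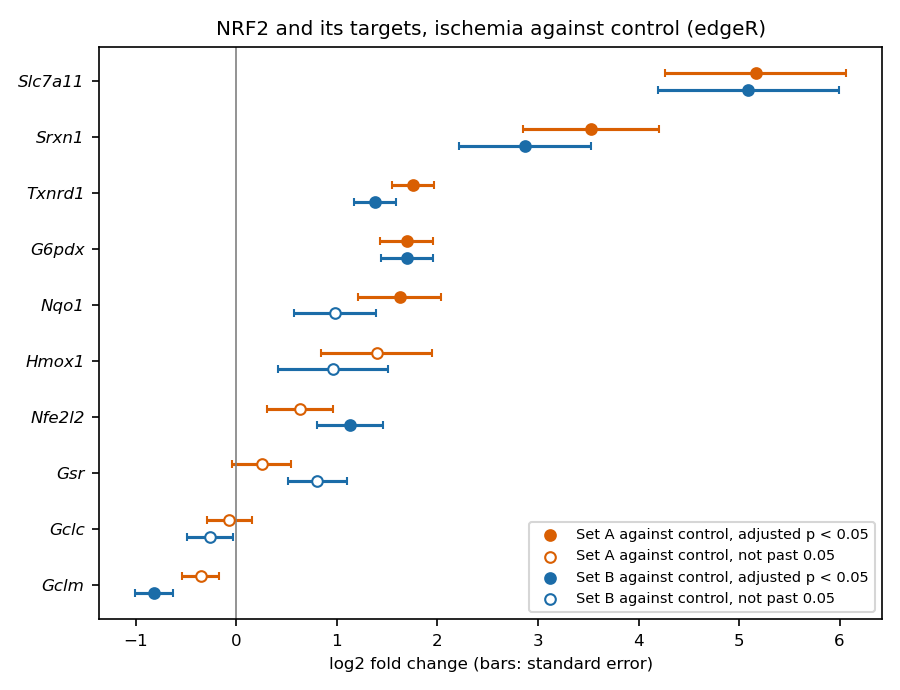
Log2 fold change of Nfe2l2 and its 9 targets, for each ischemic set against the control kidneys. Error bars are 1 standard error, derived from edgeR's F statistic (4 kidneys in each group). Filled points mark an adjusted p below 0.05. Slc7a11 and Srxn1 lie farthest above 0, Txnrd1 and G6pdx lie above 0 in both sets, and Gclm lies below it.

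The promoters of the genes were searched because several of them rose in both ischemic sets. The set of RefSeq promoter windows used, on GRCm38.p6, held 7 of the 10 genes. Hmox1, Gclc and Gsr were not in that set, so their promoters could not be read. The 7 genes had 9 windows, since Txnrd1 has 3 starts. The 250 bases before each start were read on both strands. A gene was counted where any of its windows held the motif. The ARE core TGACNNNGC was present in 4 of the 7, and in 11.5% of the 27025 genes with a window. The AP-1 site TGANTCA, which shares its first letters with the ARE, was present in 1 of the 7, Srxn1, and in 7.82% of all genes. The joined form TGANTCAGC, searched after the windows had been read, was present in Srxn1 and in 1.17% of all genes. The matches are printed 5′ to 3′ on the strand of the gene, with 10 bases on each side and with the matched letters in capitals. The matches in Gclm, Txnrd1 and G6pdx are read on the opposite strand, so their capitals show the reverse complement of the core.
Nfe2l2: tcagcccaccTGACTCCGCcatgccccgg
Gclm: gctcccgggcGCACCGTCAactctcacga
Txnrd1: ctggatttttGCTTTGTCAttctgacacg
G6pdx: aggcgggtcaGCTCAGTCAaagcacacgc
Srxn1, first site: tcggagggccTGAGTCAccacgctgtg
Srxn1, second site: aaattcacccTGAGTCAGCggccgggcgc
They lie at chr2:75704885-75704913 for Nfe2l2 (minus strand), chr3:122245413-122245441 for Gclm (plus), chr10:82859104-82859132 for Txnrd1 (plus), chrX:74428919-74428947 for G6pdx (minus), and chr2:152105412-152105438 and chr2:152105469-152105497 for Srxn1 (plus). The Txnrd1 and G6pdx matches lie before starts at positions 82859206 and 74428880, inside the spans of these genes and not at their outer ends. Of these 5 genes, Txnrd1, G6pdx and Srxn1 rose in both sets, Nfe2l2 rose in set B and Gclm fell in set B. The windows of Slc7a11, which rose in both sets, and Nqo1, which rose in set A, held none of these motifs. A match is a description of the letters in these windows and not a bound site.

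Nfe2l2 (chr2:75675513-75704641, minus strand, mm10) encodes NRF2 itself. Its level was 7.86, 14.6, 23.1 and 21.4 CPM in the controls, 25.6, 15.8, 25.6 and 36.9 CPM in set A, and 34.8, 37.8, 47.2 and 27.2 CPM in set B. All 4 kidneys of set B lay above every control, whereas replicate 2 of set A lay within the control range. The log2 fold change was 1.13 (SE 0.33, edgeR adjusted p = 0.0161) in set B and 0.63 (SE 0.33, edgeR adjusted p = 0.199) in set A. Set B against set A differed by 0.50 on the log2 scale (95% interval -0.137 to 1.14), which did not pass, so the sets were not shown to differ. Set B lost the call without replicate 1 of the controls (log2 fold change 0.90, edgeR adjusted p = 0.0503) or without its own replicate 3 (0.97, edgeR adjusted p = 0.0624).

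**Figure D2:**
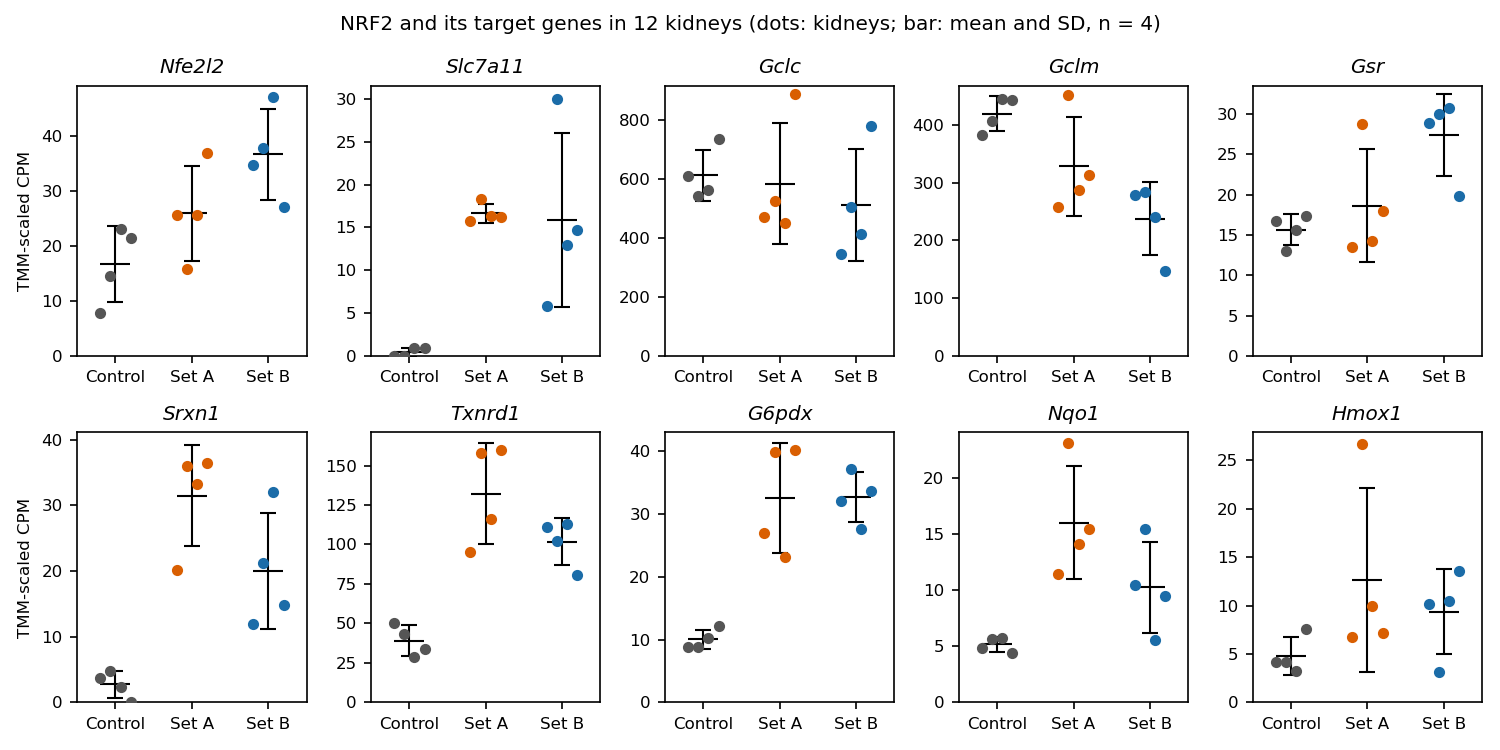
TMM-scaled CPM of each of the 10 genes in every kidney of the control group, set A and set B, with 1 point per kidney and a bar at the group mean with its SD. The points of set A and set B do not overlap the controls for Txnrd1, Srxn1, G6pdx and Slc7a11, and most ischemic points for Gclm lie below the controls.

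Slc7a11 (chr3:49892526-50443614, minus strand) encodes the light chain of the antiporter that brings cystine into the cell for glutathione. It had 0, 0, 24 and 34 counts in the controls, or 0, 0, 0.926 and 0.888 CPM. Its level was 15.8, 18.3, 16.3 and 16.2 CPM in set A and 5.79, 30.0, 12.9 and 14.7 CPM in set B. Set A was tight around its mean of 16.7 ± 1.13 CPM (SD, n = 4), set B was spread around 15.8 ± 10.2 CPM (SD, n = 4), and all 8 ischemic kidneys lay above the controls. The fitted rise was 35.9-fold in set A (log2 5.17, SE 0.90, edgeR adjusted p = 2.35e-04) and 34.1-fold in set B (log2 5.09, SE 0.90, edgeR adjusted p = 2.68e-04). With 2 controls at 0 the size of these folds is loose. Without 1 kidney the log2 value lay between 4.74 (without replicate 2 of the controls) and 5.77 (without replicate 4 of the controls) in set A, and between 4.56 (without replicate 2 of set B) and 5.68 (without replicate 4 of the controls) in set B. The highest of the other settings in set A was 5.95, by limma-trend.

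Gclc (chr9:77754535-77794485, plus strand) and Gclm (chr3:122245557-122270732, plus strand) encode the catalytic and the modifier subunit of glutamate-cysteine ligase, which carries out the limiting step of glutathione synthesis. Per kilobase of exon they were the most abundant of the 10 genes in the controls, at 163 CPM per kb for Gclc and 66.7 CPM per kb for Gclm. The next gene, Gsr, was at 5.69 CPM per kb.

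Gclc was at 609.6, 544, 563 and 735 CPM in the controls, 471, 526, 449.7 and 888 CPM in set A, and 347, 505, 413 and 780.3 CPM in set B. In each ischemic set 3 kidneys lay below all controls and replicate 4 lay above them. Its log2 fold change was -0.07 in set A (95% interval -0.511 to 0.369, edgeR adjusted p = 0.901) and -0.26 in set B (95% interval -0.702 to 0.178, edgeR adjusted p = 0.497). Without replicate 4 of set A the value there was -0.37, and without replicate 4 of set B it was -0.54 in set B (edgeR adjusted p = 0.0542).

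Gclm was at 382, 407, 445 and 443 CPM in the controls, 258, 452, 288 and 314 CPM in set A, and 279, 283, 240.0 and 147 CPM in set B. All kidneys of set B were below all controls, and in set A replicate 2 alone was above them. Gclm fell in set B, with a log2 fold change of -0.82 (SE 0.19, edgeR adjusted p = 0.00295). In set A the value was -0.36 (SE 0.19, edgeR adjusted p = 0.212), which became -0.55 and passed without replicate 2 (edgeR adjusted p = 0.0383). Set B against set A gave -0.47 (95% interval -0.835 to -0.098), with an unadjusted p of 0.0226 and an edgeR adjusted p of 0.941. An antisense transcript, Gm17494, overlaps Gclm.

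The ratio of Gclc to Gclm, both in CPM per kb, was 2.67, 2.23, 2.11 and 2.77 in the controls. It was 3.05, 1.94, 2.61 and 4.73 in set A and 2.07, 2.98, 2.88 and 8.86 in set B. Replicate 4 of each ischemic set had the highest ratio of its set, and the groups overlapped. The control mean was 2.45 ± 0.321, that of set A was 3.08 ± 1.19 and that of set B was 4.2 ± 3.14 (SD, n = 4 each), and neither set differed from the controls in a two-sided exact permutation test (p = 0.429 and p = 0.229).

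**Figure D3:**
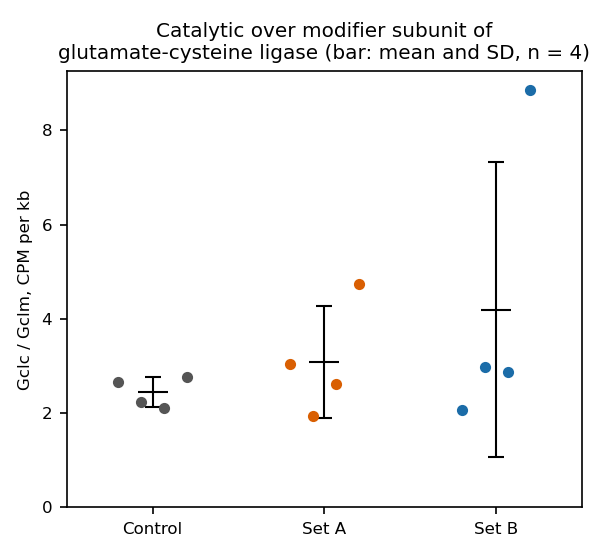
Ratio of Gclc to Gclm, each in CPM per kb of exon, in every kidney, with a bar at the group mean and its SD (4 kidneys per group). The controls lie between 2.11 and 2.77, and replicate 4 of set B stands apart at 8.86.

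Gsr (chr8:33652523-33698163, plus strand) encodes glutathione reductase, which returns oxidised glutathione to its reduced form. It was at 16.7, 13.0, 15.6 and 17.3 CPM in the controls, 13.5, 28.8, 14.3 and 18.0 CPM in set A, and 28.9, 30.0, 30.7 and 19.8 CPM in set B. All kidneys of set B lay above the controls, and set A overlapped them. The log2 fold change was 0.81 in set B (SE 0.29, edgeR adjusted p = 0.0545) and 0.25 in set A (SE 0.29, edgeR adjusted p = 0.661). The value in set B passed under 8 alternatives, among them DESeq2 (adjusted p = 0.0318), and without replicate 2 of set A the value in set A was -0.04.

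Txnrd1 (chr10:82833951-82897712, plus strand) encodes cytosolic thioredoxin reductase. Its level was 50.6, 43.2, 28.6 and 33.9 CPM in the controls, 95.2, 158, 116 and 159.7 CPM in set A, and 111, 102, 113 and 80.5 CPM in set B. Every ischemic kidney lay above every control. Txnrd1 rose 3.39-fold in set A (log2 1.76, SE 0.21, edgeR adjusted p = 2.87e-06) and 2.60-fold in set B (log2 1.38, SE 0.21, edgeR adjusted p = 4.75e-05). Set B against set A was -0.38 (95% interval -0.778 to 0.019) and did not pass. Eid3, which lies inside Txnrd1 on the same strand, had 0 to 95 counts.

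Srxn1 (chr2:152105516-152111376, plus strand) encodes sulfiredoxin, which repairs overoxidised peroxiredoxins, and carries both AP-1 sites printed above. It was at 3.69, 4.83, 2.35 and 0.0522 CPM in the controls, 20.2, 36.0, 33.3 and 36.5 CPM in set A, and 11.9, 21.2, 32.0 and 14.9 CPM in set B. Replicate 4 of the controls had 2 counts, under the floor, and no ischemic kidney overlapped the controls. Srxn1 rose 11.5-fold in set A (log2 3.53, SE 0.67, edgeR adjusted p = 5.63e-04) and 7.33-fold in set B (log2 2.87, SE 0.66, edgeR adjusted p = 0.00286). By limma-trend the log2 values were 4.32 and 3.60. Set B against set A was -0.66 (95% interval -1.849 to 0.539) and did not pass.

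G6pdx (chrX:74409483-74429194, minus strand) encodes glucose-6-phosphate dehydrogenase, which opens the pentose phosphate pathway and supplies the NADPH used by both reductases. It was at 8.87, 8.89, 10.3 and 12.1 CPM in the controls, 27.0, 39.8, 23.2 and 40.2 CPM in set A, and 32.1, 37.2, 27.6 and 33.6 CPM in set B. All 8 ischemic kidneys lay above the controls. The rise was 3.24-fold in set A (log2 1.69, SE 0.26, edgeR adjusted p = 6.12e-05) and 3.25-fold in set B (log2 1.70, SE 0.26, edgeR adjusted p = 6.06e-05). Ikbkg overlaps G6pdx on the opposite strand. It had 360, 811, 769 and 865 counts in the controls, more than G6pdx in each of them. It had 1603, 949, 2120 and 1033 counts in set A and 882, 602, 879 and 757 in set B. Relative to library size Ikbkg too was higher in both ischemic sets. The strand setting of the counting is not stated, so reads shared between them are uncertain, and their part in the rise of G6pdx was not tested. The near-identical copy G6pd2 had 0 to 2 counts.

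Nqo1 (chr8:107388225-107403206, minus strand) encodes a reductase that turns quinones into hydroquinones in a single step. It was at 4.89, 5.69, 5.75 and 4.39 CPM in the controls, 11.4, 23.1, 14.1 and 15.4 CPM in set A, and 10.5, 15.4, 5.56 and 9.52 CPM in set B. Set A lay wholly above the controls, and replicate 3 of set B lay among them. Nqo1 rose 3.08-fold in set A (log2 1.62, SE 0.41, edgeR adjusted p = 0.00622), and in set B its log2 fold change was 0.98 (SE 0.40, edgeR adjusted p = 0.0932). The difference between the sets was -0.64 (95% interval -1.43 to 0.143) and did not pass. Without replicate 3 of set B, Nqo1 passed in set B (edgeR adjusted p = 0.0495).

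Hmox1 (chr8:75093621-75100589, plus strand) encodes heme oxygenase, which breaks heme down to biliverdin, iron and carbon monoxide. It was at 4.17, 4.16, 3.24 and 7.6 CPM in the controls, 6.76, 26.7, 9.93 and 7.16 CPM in set A, and 10.2, 3.16, 10.5 and 13.6 CPM in set B. Both sets overlapped the controls, and replicate 2 of set A stood far above the rest of its set. The log2 fold change was 1.39 in set A (SE 0.55, edgeR adjusted p = 0.0796) and 0.96 in set B (SE 0.55, edgeR adjusted p = 0.245). Without replicate 2 of set A the value there was 0.73 (edgeR adjusted p = 0.460).

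The ischemic and control kidneys were fully separated for 5 of the 10 genes in set A, where 28.2% of all genes tested were, and for 7 of the 10 in set B, where 26.7% were. The genes were Nqo1, Txnrd1, Srxn1, G6pdx and Slc7a11 in set A, and Nfe2l2, Txnrd1, Srxn1, Gclm, Gsr, G6pdx and Slc7a11 in set B. Between the sets none of the 10 was separated, where 2.61% of all genes were. Each separated gene had an exact two-sided permutation p of 0.0286, which is the smallest that 4 kidneys against 4 can give.

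By CPM per kb, the order of mean levels in the controls was Gclc, Gclm, Gsr, Txnrd1, Nfe2l2, Nqo1, G6pdx, Hmox1, Srxn1 and Slc7a11. In set A Txnrd1 (18.7 CPM per kb), Srxn1 (11.2 CPM per kb) and G6pdx (10.6 CPM per kb) followed Gclc and Gclm. In set B Txnrd1 (14.3 CPM per kb), G6pdx (10.6 CPM per kb) and Gsr (9.93 CPM per kb) did. Slc7a11 was the lowest of the 10 in all 3 groups, at 0.0326, 1.2 and 1.14 CPM per kb.

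Among the 8 ischemic kidneys the 10 genes did not move as a block. Of their 45 pairs, 31 had a correlation of log2 CPM above 0 and 7 had one above 0.5, with a median of 0.165. The closest pairs were Txnrd1 with Gclm (r = 0.848), Txnrd1 with Srxn1 (r = 0.711) and Nqo1 with Gclm (r = 0.681). The 2 pairs below -0.5 were Nfe2l2 with Nqo1 (r = -0.681) and Nfe2l2 with Hmox1 (r = -0.631). With the other 7 genes Nfe2l2 lay between -0.382 (Gclm) and 0.251 (Gsr), and Gsr was the only member with which it was above 0. The genes most like Nfe2l2 over these kidneys, out of 6440 compared, were Traf7 (0.954), Cdcp1 (0.937) and Echs1 (0.928). With 6440 genes compared over 8 kidneys, top values this high can arise without any link. All these values are descriptions over 8 kidneys of 2 sets that share libraries and depth.

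A further 48 genes of the pathway were read in 7 lists, and 45 of them were tested. In set A 11 rose and 8 fell (42.2% called, where 22.3% of all genes were, and median log2 fold change 0.325). In set B 9 rose and 6 fell (33.3% called, where 22.8% of all genes were, and median 0.336). The lists held between 5 and 10 genes tested each, so a single gene moves the share of a list by a wide margin, and the same shares of all genes stand behind each list. Every fold change of these genes described as a rise or a fall had an edgeR adjusted p below 0.05. None passed between the sets, and 4 of the 45 had an unadjusted p below 0.05 there (8.89%), namely Btrc, Cbr1, Ugdh and Prdx1, where 5.03% of all genes did. Btrc was higher and the other 3 were lower in set B. Outside the rule for naming genes, Prdx1, Cbr1, Cbr3, Gstm1, Fth1 and Abcg2 are named because of their calls, after their values were seen.

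Of the regulators of NRF2, 10 were tested. In set A 1 rose and 3 fell (40.0% called, where 22.3% of all genes were). In set B 1 rose and 1 fell (20.0% called), a share below the 22.8% of all genes. Sqstm1, an autophagy adaptor that binds KEAP1, rose in both sets, with a log2 fold change of 0.79 (edgeR adjusted p = 0.00161) in set A and 0.58 (edgeR adjusted p = 0.0150) in set B. Its level was 111, 113, 117 and 124 CPM in the controls, 155, 235, 209 and 201 CPM in set A, and 186, 207, 187 and 116 CPM in set B, where replicate 4 lay within the control range. Without replicate 2 of set B, Sqstm1 did not pass there (log2 fold change 0.47, edgeR adjusted p = 0.0733). Cul3, the scaffold of the ligase, fell in both sets, by 0.49 on the log2 scale in set A (edgeR adjusted p = 0.00850) and by 0.48 in set B (edgeR adjusted p = 0.00927). The call in set A was lost without replicate 1 of set A (edgeR adjusted p = 0.0523). Btrc and Syvn1, of other ubiquitin ligases that act on NRF2, fell in set A, by 0.89 and 0.51 on the log2 scale. In set B their values were -0.29 and -0.23 and did not pass, and neither difference between the sets passed the adjusted threshold. Keap1 did not pass, with log2 fold changes of -1.26 (SE 0.83) in set A and -1.10 (SE 0.83) in set B at 1.21 to 11.4 CPM, and the size of these standard errors limits the change that could be seen. Nfe2l1, a relative of NRF2, did not pass, but it did in set B without replicate 1 of that set (log2 fold change 0.46, edgeR adjusted p = 0.0227). Rbx1, Mafg, Mafk and Maff, of which the last 3 are small MAF partners, did not pass in either set, and Bach1, a repressor at AREs, was too low to be tested.

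Of the other genes of glutathione use, 6 were tested, none rose, and 2 fell in set A and 3 in set B. Ggt1, a brush border enzyme that breaks glutathione down outside the cell, fell 4.55-fold in set A and 5.19-fold in set B. Gss, which completes glutathione synthesis after Gclc and Gclm, fell 2.32-fold and 2.82-fold. The third gene in set B was Gstm1, a glutathione transferase, with a log2 fold change of -1.003 (edgeR adjusted p = 0.00347). In set A its value was -0.57 (edgeR adjusted p = 0.0928), which passed without replicate 2 of set A (-0.87, edgeR adjusted p = 0.00625) or replicate 4 of set B (edgeR adjusted p = 0.0224), under the replicate block (-0.62, edgeR adjusted p = 0.0397) and with no low-count filter (edgeR adjusted p = 0.0352). None of the 5 thioredoxin genes tested beside Txnrd1 and Srxn1 passed in either set. Prdx1, a peroxiredoxin, had a log2 fold change of 0.49 in set A (edgeR adjusted p = 0.104), with no overlap with the controls. It passed there in a fit of only the 2 groups compared (edgeR adjusted p = 0.00441) and without replicate 4 of set B (edgeR adjusted p = 0.00499). Ggt1 fell beside the proximal tubule markers given above, and their part in it was not tested.

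Of the 6 genes of NADPH supply tested beside G6pdx, 3 rose and 1 fell in each set. Pgd, the next NADPH-producing step after G6pdx, rose 4.39-fold in set A and 3.30-fold in set B. Taldo1 and Tkt, of the branch that does not yield NADPH, rose 2.45-fold and 1.70-fold in set A and 2.16-fold and 1.47-fold in set B. Tkt lost its call in set B without replicate 3 of the controls (edgeR adjusted p = 0.0656) or replicate 3 of set B (edgeR adjusted p = 0.0587). Me1, the cytosolic malic enzyme and also a source of NADPH, fell 4.11-fold in set A and 5.11-fold in set B. It was at 177 to 228 CPM in the controls and 31.2 to 62.8 CPM in the ischemic kidneys.

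**Figure D4:**
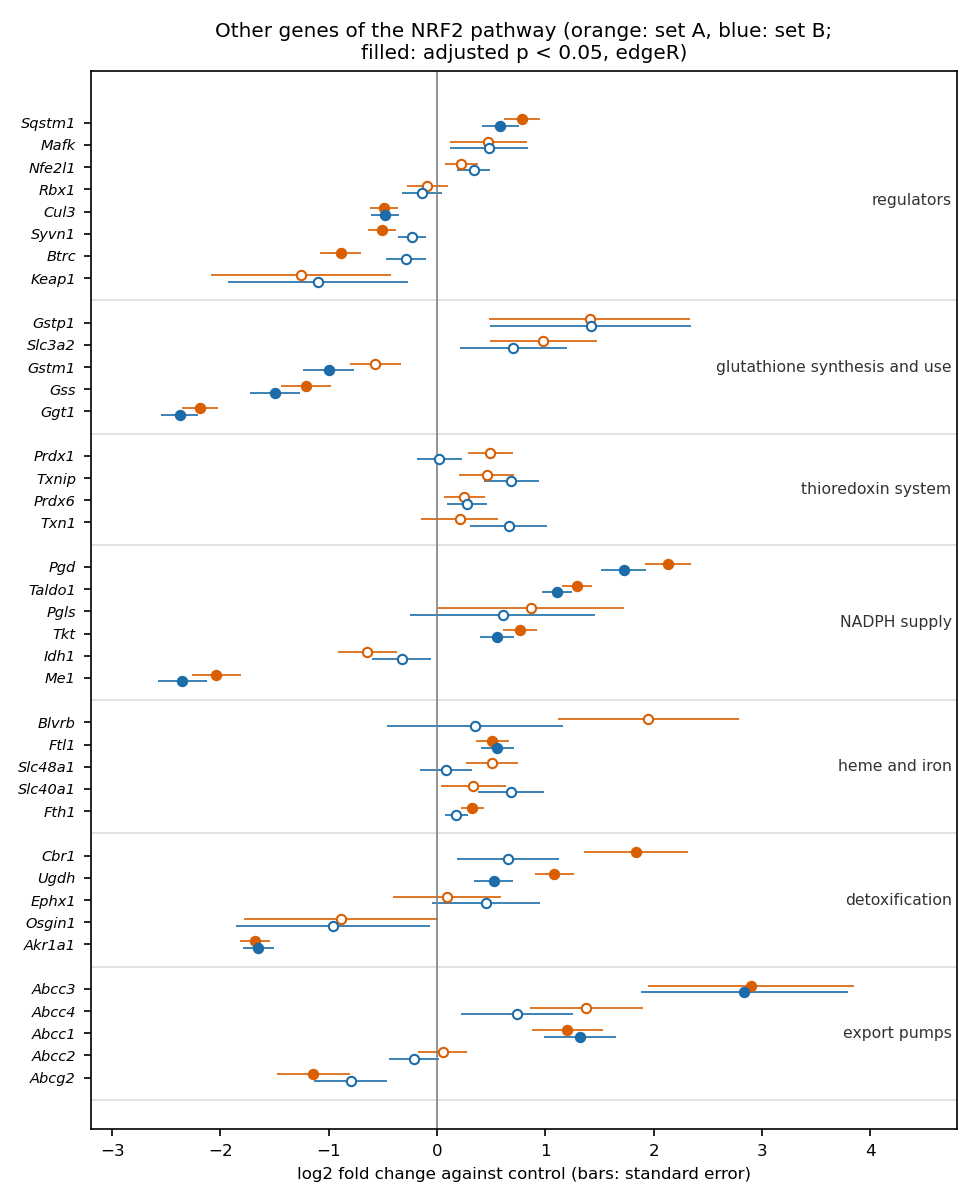
Log2 fold change of the other pathway genes in set A and set B against control, arranged by list. Bars are 1 standard error, derived from edgeR's F statistic, and filled points mark an adjusted p below 0.05. The plot holds the 38 of 45 tested genes with a standard error below 1 in set A, and shows Pgd and Abcc3 far above 0 and Ggt1, Me1 and Akr1a1 far below it.

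Of the 6 genes of heme and iron, 2 rose in set A (33.3% called) and 1 in set B (16.7% called), a share in set B below that of all genes. The erythroid markers summed to 56.9 to 123 CPM per control kidney, while set A gave 25.5 to 48.5 CPM and set B 14.7 to 31.7 CPM, and their part in these values was not tested. Ftl1, the ferritin light chain, rose in both, by 1.42-fold and 1.47-fold. Its call in set A was lost without replicate 3 or 4 of the controls (edgeR adjusted p = 0.0754 and 0.0649) or replicate 2 of set A (0.102), and that in set B without replicate 3 of set B (0.0508). Fth1, the heavy chain, was the other gene called in set A, at 1.25-fold (edgeR adjusted p = 0.0301), and its call was lost without replicate 1, 2 or 3 of the controls, 2 or 4 of set A, or 1, 2 or 3 of set B (edgeR adjusted p = 0.0508 to 0.141). Of the 7 detoxification genes, 3 rose and 1 fell in set A, and 2 rose and 1 fell in set B. Ugdh, which makes the sugar donor for glucuronidation, rose 2.12-fold in set A and 1.44-fold in set B, and the rise in set B was lost without any 1 control, without replicate 3 or 4 of set A and without replicate 1, 2 or 3 of set B (edgeR adjusted p = 0.0508 to 0.211). Akr1a1, an aldehyde reductase, fell 3.21-fold and 3.14-fold. Cbr1, a carbonyl reductase, rose 3.57-fold in set A (edgeR adjusted p = 0.00837), and its log2 fold change in set B was 0.65 (edgeR adjusted p = 0.392). Cbr3, a related enzyme, is counted among the rises in both sets, but it had no count in any control and passed the low-count filter through the ischemic kidneys, in which it was high. It was at 3.3, 2.95, 4.01 and 2.05 CPM in set A, at least 29.8-fold higher than the floor of 3 counts per library. In set B it was at 1.28, 2.53, 1.35 and 0 CPM, at least 12.5-fold higher.

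Of the 5 export pumps, 2 rose in each set and 1 fell in set A. Abcc3, a pump for glucuronide and glutathione conjugates, rose 7.45-fold in set A (edgeR adjusted p = 0.0341) and 7.14-fold in set B (edgeR adjusted p = 0.0372). Its controls were at 0 to 1.07 CPM, so the size of these folds is loose. Abcc3 passed the low-count filter only with the ischemic kidneys, in which it was high. Both calls were lost without replicate 2, 3 or 4 of the controls or replicate 1 or 4 of set A, and that in set B also without its replicate 3, with edgeR adjusted p between 0.0505 and 0.116. Abcc1, a related pump, rose 2.30-fold in set A and 2.49-fold in set B. The pump that fell was Abcg2, with a log2 fold change of -1.14 in set A (edgeR adjusted p = 0.0181), lost without replicate 1 or 3 of set A (edgeR adjusted p = 0.0681 and 0.0587). In set B it was -0.80 (edgeR adjusted p = 0.0993), with every kidney below the controls, and passed under limma-trend (-1.03, adjusted p = 0.0421) and without replicate 1 of set B (edgeR adjusted p = 0.0396).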

How the data were processed

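RNA from 12 mouse kidneys was measured by stranded mRNA sequencing. The authors mapped the reads to mm10 with STAR after FastQC, used HTSeq to count reads on genes, and deposited the raw counts of 23420 genes, not normalised. Tool versions are not given in the sources used here. Positions were taken from GENCODE vM21, and promoters from RefSeq on GRCm38.p6.

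The deposited counts were analysed in edgeR 4.0.16 (R 4.3.3). The low-count filter (minimum count 10, minimum total 15) left 11664 genes, libraries were scaled by TMM (0.968 to 1.03), and all 12 kidneys entered a single fit with a coefficient for each of 3 groups. Two-sided quasi-likelihood F-tests were adjusted over all genes tested (Benjamini-Hochberg), and an adjusted p below 0.05 was called. P-values measure the spread between these kidneys. Each standard error was the absolute log2 fold change over the square root of the F statistic. The 95% intervals took a normal quantile times this error, so they are somewhat narrower than the F-test would give. Single genes were compared by exact permutation of CPM. No pair of replicates within a group differed by as little as sampling noise (chi-square per degree of freedom at least 50.6). Alternatives were DESeq2 1.42.0, limma-trend (limma 3.58.1), other scalings and filters, a fit of 2 groups, a replicate block and leaving out each kidney.

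The 10 genes and the pathway lists were chosen with earlier results of these data known. From each list other than the regulators, up to 3 genes higher and 3 lower in both sets, and with mean log2 CPM not under 1, were named. The 3 genes most correlated with Nfe2l2 over the ischemic kidneys were also named. Python 3.11.15 was used for the rest.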

Additional observations from a re-analysis of the deposited data

Results flagged for a closer look

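For the 10 genes and the 28 other pathway genes named, 113 groups of 4 kidneys with any spread were screened for a kidney that stood apart, by Dixon's ratio of its gap to the nearest other kidney over the range of the group, at the 95% level. Of these, 11 passed. Chance gives about 1 in 20 for normally spread values, which does not hold for groups with counts of 0. The flagged groups of Bach1, Maff and Abcc3 held such counts, so no excess over chance can be read from the number flagged. Hmox1 in set A had its highest value in replicate 2, at 26.7 CPM. The same kidney was the highest of set A for Gss, at 116 CPM, and for Ftl1, at 482 CPM, and also held the highest values of Nqo1, Gclm, Gsr and Slc7a11 in its set without standing that far apart. Keap1 was at 6.38 CPM in replicate 3 of set B. Bach1 was at 1.1 CPM in replicate 4 of the controls and at 2.72 CPM in replicate 2 of set B. Maff was at 1.71 CPM in replicate 2 of the controls and at 4.16 CPM in replicate 1 of set A. Ggt1 was highest in replicate 4 of the controls, at 1167 CPM, Me1 in replicate 1 of set B, at 58.6 CPM, and Abcc3 was lowest in replicate 1 of the controls, at 0 CPM.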

How the results depend on the processing

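Over 20 alternative settings (8 choices of fit, scaling or filter and 12 fits without 1 kidney), 587 of 600 values of the 10 genes kept their side of the threshold, 11 came to pass and 2 ceased to pass. The sign turned in 16 of the 587, none of them past the threshold before or after. The number of the 10 genes called was 5 to 6 in set A, 5 to 8 in set B (8 under DESeq2) and 0 between the sets. The calls lost were those of Nfe2l2 in set B given above. In set B, Nqo1 also passed under DESeq2 (adjusted p = 0.0496). Of 1618 values of the other pathway genes named, 1561 kept their side, 48 ceased to pass, 9 came to pass and 0 turned in sign as a call. Abcc3 also lost both calls under the replicate block (adjusted p = 0.0630 and 0.0708) and in a fit of only the 2 groups compared (0.0509 and 0.0902), and Ugdh lost its call in set B under the block (0.0633), limma-trend (0.0558) and the 2-group fit (0.0762). Fth1 lost its call in set A under the block (0.0532), limma-trend (0.0805) and no filter (0.0745). Gstm1 in set A, Prdx1 in set A and Abcg2 in set B came to pass under the settings given above. Between the sets, 1 gene of all those tested was called, against 27 by DESeq2, 6 with no filter on low counts, 0 by limma-trend, 0 in a fit of the 2 sets only and 0 to 7 without 1 kidney, and the cause was not tested; 587 genes had an unadjusted p below 0.05. The replicate block called 2491 genes in set A, 2531 in set B and 1 between the sets, and 5, 6 and 0 of the 10 genes. Same-numbered kidneys did not deviate together (correlations of -0.055 to 0.045), so the numbers were not taken as pairs. Low counts limit Keap1, Maff, Mafg, Bach1 and the controls of Slc7a11 and Srxn1.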
